A study of Mus musculus with 4 samples.

Results

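Cxcl1, Cxcl2, Cxcl3, Cxcl5, Ppbp and Pf4 encode the neutrophil-attracting CXC chemokines and the platelet chemokines of a gene cluster on mouse chromosome 5. These 6 genes, of 54146 listed in the count table, were examined in RNA from tumor-associated macrophages (TAMs). They were chosen by their counts and fold changes in the comparison of propranolol with control, which were known from earlier results, so their levels, fold changes and calls are given as a description and without p-values. All 6 names were found in the table through their Ensembl identifiers.

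TAMs were isolated from MCA205 tumors, a fibrosarcoma line of C57BL/6 mice, which had been grown under the skin of female mice aged 8 to 16 weeks. Control mice (labelled vehicle) received no propranolol, and the treated mice drank water with 0.5 g/L propranolol hydrochloride from the day the tumor cells were injected. CD45+ cells were enriched with beads, live CD11b+F4/80+ cells were sorted by FACS, and poly-adenylated RNA was sequenced from 2 libraries per group, which the study calls biological replicates. Whether a library holds cells of 1 mouse or of several is not given in the sources used here. The counts added up to 13798249 and 23018142 in control replicates 1 and 2 and to 39818103 and 16424081 in propranolol replicates 1 and 2. The sort markers were present in every library. Adgre1, which encodes F4/80, had between 975.3 and 1151 CPM (counts scaled to library sizes that were normalized with TMM factors), and Itgam, which encodes CD11b, had between 313 and 369 CPM.

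Cxcl1, Cxcl2, Cxcl3 and Cxcl5 are made by stimulated macrophages, fibroblasts and epithelial cells, bind the receptor CXCR2 on neutrophils and draw these cells into inflamed tissue. Their transcripts are induced through NF-kB and are short-lived. Ppbp and Pf4 are best known from platelets, which store both proteins in their granules. The product of Ppbp is trimmed by proteases to a further CXCR2 ligand, whereas PF4 lacks the amino acids that CXCR2 recognizes and binds heparin-like chains. Propranolol blocks the beta-adrenergic receptors, through which catecholamines raise cyclic AMP in macrophages.

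The stretch before the start of each gene is shown because the 6 genes are neighbours and 3 of them hold the same NF-kB sequence close to the start. RefSeq (GRCm38.p6) gave a window from 250 bases before to 50 bases after the start for 5 of the genes, and none was found for Cxcl5. Printed here, 5′ to 3′ on the + strand, are up to 150 bases before the start, ending where the GENCODE M21 gene begins if that comes first: chr5:90768368-90768517 for Ppbp, chr5:90772285-90772434 for Pf4, chr5:90785951-90786100 for Cxcl3, chr5:90891095-90891240 for Cxcl1 and chr5:90903749-90903870 for Cxcl2. Capitals mark matches to the NF-kB consensus and to the TATA box, TATAAA.
Ppbp: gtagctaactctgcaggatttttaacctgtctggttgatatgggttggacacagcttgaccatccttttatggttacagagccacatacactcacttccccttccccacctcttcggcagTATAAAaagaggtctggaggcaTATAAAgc
Pf4: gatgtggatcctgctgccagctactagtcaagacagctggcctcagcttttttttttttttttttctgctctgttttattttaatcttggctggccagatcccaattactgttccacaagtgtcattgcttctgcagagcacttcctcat
Cxcl3: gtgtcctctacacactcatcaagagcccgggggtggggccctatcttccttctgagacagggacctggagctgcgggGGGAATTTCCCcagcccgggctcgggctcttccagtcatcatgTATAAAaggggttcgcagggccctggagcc
Cxcl1: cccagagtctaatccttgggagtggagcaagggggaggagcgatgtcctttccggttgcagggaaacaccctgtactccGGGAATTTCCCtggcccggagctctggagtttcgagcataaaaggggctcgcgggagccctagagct
Cxcl2: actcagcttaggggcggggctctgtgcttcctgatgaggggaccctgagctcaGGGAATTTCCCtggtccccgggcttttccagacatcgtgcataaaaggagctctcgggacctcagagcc

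Both strands of the 300-base windows were searched. The NF-kB consensus was found in Cxcl3 (bases -73 to -64 from the start), Cxcl1 (-71 to -62) and Cxcl2 (-97 to -88), each time with a second match on the other strand that is shifted by 1 base. The same bases, GGGAATTTCCC, form the match in all 3 genes. Of 32851 windows of this length in the RefSeq table, 4.51% held the consensus. TATAAA was found in Cxcl3 (-30 to -25) and at a pair of places in Ppbp (-30 to -25 and -8 to -3), against 13.6% of all windows. The full cyclic AMP response element TGACGTCA was in none of the 5 windows and in 1.79% of all windows, and its shorter core TGACG was in Cxcl1 alone (20.8% of all windows). The AP-1 site TGANTCA was in Ppbp alone (7.81%), the C/EBP site TTNCNNAA in Pf4 and Cxcl2 (40.7%), and the GATA site GATAAG in none (7.44%). These are matches of letters within a short window and do not show binding.

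Of the 6 genes, 5 had enough counts to pass the filter, and these 5 were called higher in TAMs from propranolol treated mice, where a call is an adjusted p under 0.05 in the edgeR quasi-likelihood test and a change of more than 1.5-fold. By the same rule 12.2% of the 14688 tested genes were higher and 15.6% were lower. Both propranolol libraries lay above both control libraries for these 5 genes, as they did for 35.8% of all tested genes, and both lay below for 36.9%. Because this comparison had chosen the genes, nothing is read from these counts. In fits with 1 library left out, here and below, the group left with 1 library has no spread to measure. Cxcl1 was not called without control replicate 2 or without propranolol replicate 2, so 4 calls were left in each case. With a log2 fold change above 1.5 as the threshold, as the methods write it, 2 calls were left, those of Cxcl3 and Ppbp, while 0.415% of all tested genes were higher and 4.54% lower.

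Cxcl3 differed most between the groups among the 6 genes. It is the CXCR2 ligand at chromosome 5, 90786103 to 90789600 (ENSMUSG00000029379.10, GRCm38, + strand). Its counts were 61 and 108 in control and 1382 and 651 in propranolol libraries, or 4.11 and 4.30 CPM against 38.0 and 42.6 CPM. The replicates lay close to each other and the groups far apart, and the smallest ratio of a propranolol to a control library was 8.83. The fitted log2 fold change was 3.25 (standard error 0.16).

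Cxcl2 (90903871 to 90905938, ENSMUSG00000058427.10), which encodes MIP-2, was the most abundant of the CXCR2 ligands in all 4 libraries. Counts were 875 and 1734 in control and 5602 and 2970 in propranolol libraries, which corresponds to 59.0 and 69.1 CPM against 154 and 194.5 CPM. The groups did not overlap, and the gap between the propranolol replicates (1.26-fold) was smaller than the 2.23-fold gap between the nearest libraries of the 2 groups. Its log2 fold change was 1.44 (standard error 0.13). Cxcl1 (90891241 to 90893115, ENSMUSG00000029380.11), which encodes KC, had 44 and 63 counts in control and 181 and 94 counts in propranolol libraries. The values of 2.97 and 2.51 CPM against 4.98 and 6.16 CPM did not overlap, and the nearest libraries of the groups were 1.68-fold apart. With a log2 fold change of 1.02 and a standard error of 0.31, Cxcl1 was among the least precise of the 5 fitted genes.

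Cxcl5 (90759360 to 90761624, ENSMUSG00000029371.7), a further CXCR2 ligand that is known from epithelial cells, was nearly absent and did not pass the filter. Its counts of 3 and 18 in control and of 9 and 2 in propranolol TAMs overlapped. Summed over each group, 21 counts gave 0.526 CPM (exact Poisson 95% interval 0.326 to 0.804) in control and 11 counts gave 0.213 CPM (0.106 to 0.381) in propranolol TAMs. These intervals cover counting error only. The log2 ratio of the group means of CPM was -1.28, and -0.10 without control replicate 2, which held 18 of the 21 control counts.

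Ppbp and Pf4 lie next to each other, 2.37 kb apart. Ppbp (90768518 to 90770063, ENSMUSG00000029372.7) had 24 and 44 counts in control and 225 and 154 counts in propranolol libraries. In CPM these were 1.62 and 1.75 against 6.19 and 10.1, so that the groups were apart while the propranolol replicates differed by 1.63-fold, the widest gap between replicates among the 5 fitted genes. Its log2 fold change was 2.25 (standard error 0.34), with 1.90 and 2.57 as the lowest and highest values when 1 library was left out.

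Pf4 (90772435 to 90773383, ENSMUSG00000029373.7), which encodes platelet factor 4, was the most abundant of the 6 genes. It had 2298 and 3526 counts in control and 10333 and 3827 counts in propranolol libraries. The CPM values were 155 and 140.5 against 284 and 250.6, with replicates within 1.13-fold of each other in both groups. The log2 fold change of 0.86 (standard error 0.11) was the smallest of the 5.

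**Figure D1:**
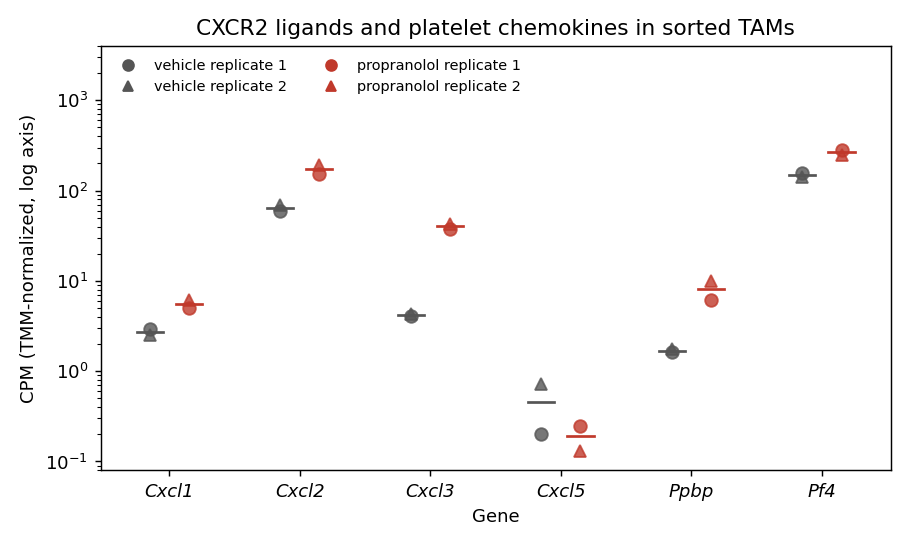
CPM of the 6 genes in each of the 4 libraries on a log axis, with circles for replicate 1, triangles for replicate 2 and a line for the mean of each group. Cxcl3 lay at 4.11 and 4.30 CPM in control and at 38.0 and 42.6 CPM in propranolol libraries, and Cxcl5, at 0.717 CPM or less, is the gene whose groups overlap.

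Levels of different genes were compared as TPM, which divides counts by the length of all exons of a gene. In control TAMs the mean TPM was 680 ± 33.0 for Pf4, 103 ± 13.6 for Cxcl2, 5.17 ± 0.399 for Ppbp, 4.85 ± 0.472 for Cxcl1, 4.00 ± 0.210 for Cxcl3 and 0.826 ± 0.666 for Cxcl5 (SD, n = 2 libraries). Ppbp, Cxcl1 and Cxcl3 were thus close together, and in control replicate 1 Cxcl1 lay above Ppbp. After propranolol the mean TPM was 1043 ± 63.4 for Pf4, 238 ± 45.6 for Cxcl2, 32.5 ± 3.54 for Cxcl3, 21.3 ± 7.76 for Ppbp, 8.38 ± 1.49 for Cxcl1 and 0.284 ± 0.117 for Cxcl5 (SD, n = 2 libraries). Cxcl3 was thus the fifth of the 6 genes in control and the third in propranolol TAMs. Its order above Ppbp held in both propranolol libraries, with 29.98 against 15.8 TPM in replicate 1 and 35.0 against 26.7 TPM in replicate 2. With the length of the longest transcript in place of all exons, the mean TPM of Cxcl2 was 80.1 and 183 in the 2 groups, and the order of the 6 genes was the same.

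The shares of Pf4 and Cxcl3 in the TPM summed over the 6 genes also differed. Pf4 held 86.7% and 83.7% of it in control and 80.8% and 74.5% in propranolol libraries. The share of Cxcl3 was 0.475% and 0.528% in control and 2.23% and 2.61% in propranolol libraries. For Cxcl1 the groups overlapped, with shares of 0.639% and 0.575% in control and 0.544% and 0.704% in propranolol libraries. The TPM of Cxcl2 was 24.3 and 27.2 times that of Cxcl3 in control and 6.86 and 7.72 times in propranolol libraries. By contrast, the ratio of Cxcl2 to Cxcl1 was 18.0 and 24.96 in control and 28.1 and 28.6 in propranolol libraries. The ratio of Pf4 to Ppbp was 144 and 120 against 69.0 and 37.3. For each of these 3 ratios the groups did not overlap, though for Cxcl2 to Cxcl1 the nearest libraries had 24.96 and 28.1. The ratios come from the values by which the genes were chosen, and no share over other gene pairs is given. Nothing is therefore read from the lack of overlap. Ranked by TPM among all genes of a library, Pf4 was at place 147 and 164 in control and 102 and 106 in propranolol libraries, and Cxcl3 was at place 11041 and 11164 in control and 4312 and 3877 in propranolol libraries.

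Some sequence is shared between genes, and how reads from it were counted was not tested. Of the 50-base stretches in the longest transcript of Cxcl2, 5.35% also occur in Cxcl3, and 3.94% of those in Cxcl3 occur in Cxcl2 or in other genes. At 100 bases the shares were 2.95% and 1.71%, all between these 2 genes. For Cxcl5 they were 2.59% at 50 and 0 at 100 bases, and for Cxcl1, Ppbp and Pf4 both were 0. No annotated gene overlaps any of the 6.

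Across all tested genes the log2 fold change increased with the GC content of the gene (Spearman's rho 0.577 across 14681 genes, which are not independent replicates). When the tested genes were divided into 10 groups by GC content, the median log2 fold change was -0.94 in the lowest and 0.46 in the highest group. Ppbp (42.4% GC) and Cxcl3 (42.9%) belonged to a group with a median of -0.59, Cxcl1 (44.6%) and Cxcl2 (45.0%) to one with a median of -0.33, and Pf4 (50%) to one with a median of 0.12. All 5 lay above the median of their GC group. Because the genes had been chosen by their fold changes, nothing is read from this. After the GC trend was removed from each library, the log2 fold change was 3.81 for Cxcl3, 2.87 for Ppbp, 1.82 for Cxcl2, 1.44 for Cxcl1 and 0.86 for Pf4. These are larger values than without the correction for 4 genes, and the value of Pf4 was the same to 2 decimals.

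**Figure D2:**
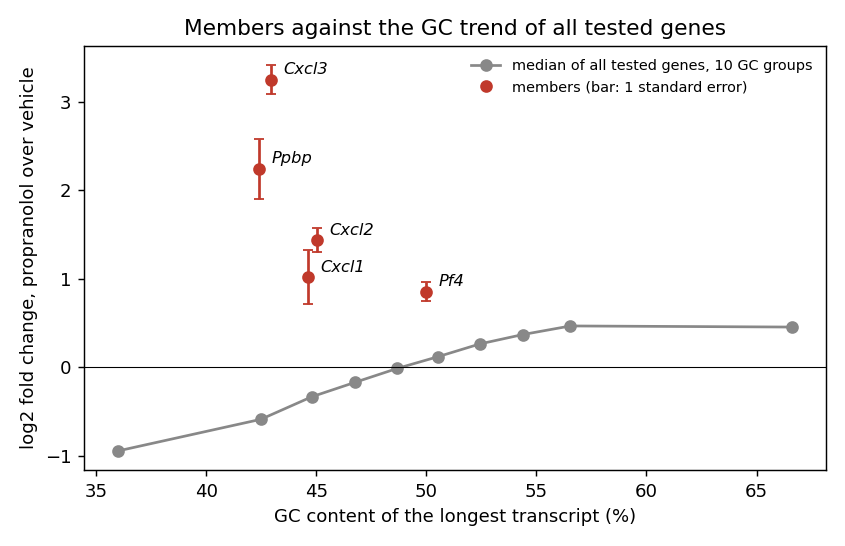
Log2 fold change (propranolol over control) against GC content in percent, with the medians of 10 groups of tested genes as a grey line and the 5 fitted genes as red points with bars of 1 standard error. The line runs from -0.94 to 0.46, and the 5 points lie between 0.86 and 3.25, above it. The genes had been chosen by their fold changes.

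**Figure D3:**
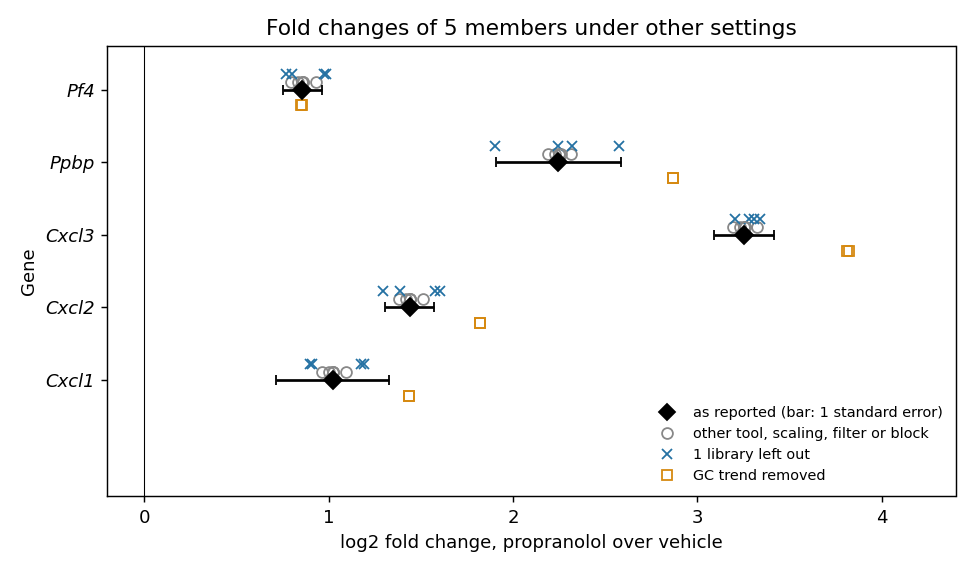
Log2 fold change of the 5 fitted genes (black diamonds, bars of 1 standard error) with other tools, scalings, filters or the replicate block (circles), with 1 library left out (crosses) and after removal of the GC trend (squares). Each value of every gene is above 0, and Cxcl3 keeps to between 3.19 and 3.82.

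Markers of other cells that could remain after the CD11b+F4/80+ sort were read in the same libraries. The CD45 beads and the gate would leave out fibroblasts, endothelial cells and T cells unless carried along. The study tested the purity of its sorted samples. In bulk RNA, fewer cells of a type and less RNA per cell cannot be told apart. Of 18 neutrophil genes 12 were tested, and 8 were higher and 0 lower in propranolol TAMs by edgeR and by DESeq2, with 9 and 0 at an unadjusted p under 0.05. The share of all tested genes at that unadjusted threshold is not given here, so nothing is read from such counts, here or below. The summed level of the 18 genes was 222 and 252 CPM in control and 482 and 499 CPM in propranolol libraries. S100a9, a calcium-binding alarmin, had 19.2 and 21.05 CPM in control and 83.8 and 82.4 CPM in propranolol libraries, and Lcn2, an iron-scavenging granule protein, had 0.742 and 1.51 against 6.05 and 5.76 CPM. Ltf, a further granule protein, had 2.36 and 1.59 against 1.71 and 1.38 CPM (log2 fold change -0.33, not called). Camp had 0 and 6 against 1 and 1 counts and Ngp had 7 and 7 against 15 and 3 counts, too few for a test. Among the defining markers, Retnlg was higher (log2 fold change 0.79, standard error 0.17, edgeR adjusted p = 0.0052), Stfa2l1 had 11 and 12 counts in control and 42 and 9 in propranolol libraries, and Ly6g had 0 and 2 against 17 and 8 counts. The most abundant gene of the list was Csf3r, the G-CSF receptor, with 97.0 and 129.5 CPM against 154 and 179.7 CPM. Its log2 fold change of 0.56 was under the fold threshold, and it was called with no filter on low counts (0.63) or when control replicate 2 (0.80) or propranolol replicate 1 (0.67) was left out. The part of neutrophil RNA in the levels of the 6 chemokines was not tested.

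Platelet RNA was read in the same way, since Ppbp and Pf4 are platelet genes. Of 15 platelet and megakaryocyte genes 6 were tested, and 0 were called in either direction by edgeR or DESeq2, with 0 at an unadjusted p under 0.05. Their summed level was 27.4 and 22.8 CPM in control and 23.1 and 25.5 CPM in propranolol libraries, so that the groups overlapped, and Itgb3, which macrophages also express, made up 16.5, 12.6, 12.05 and 11.8 CPM of it. The defining markers were low. In control replicates 1 and 2 and propranolol replicates 1 and 2, in this order, Gp1ba had 9, 13, 14 and 14 counts, Gp9 had 9, 0, 1 and 5, and Itga2b had 33, 51, 45 and 27. Gp1bb, which is not a defining marker, was at 0 in every library. Values that were not called went both ways, with log2 fold changes of 0.64 for Nfe2, 0.67 for Treml1, -0.52 for Itga2b and -0.28 for Itgb3. Nfe2 had 3.24 and 3.55 CPM in control and 5.97 and 4.58 CPM in propranolol libraries, without overlap. In CPM, which is not corrected for gene length, Pf4 alone was above the sum of the list in each library. The part of platelet RNA in the levels of Ppbp and Pf4 was not tested.

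The macrophage list had 14 tested genes (9 higher and 1 lower at an unadjusted p under 0.05), of which 1 was called higher (Csf1r, the receptor of M-CSF, log2 fold change 0.59) and 1 lower (Ptprc, which encodes CD45, -0.74). At 1.51-fold, Csf1r was just above the fold threshold. Values of either gene under other settings are not given here. The summed level of the macrophage list was 24999.6 and 24019 CPM in control and 30732 and 27969 CPM in propranolol libraries, with Lyz2 as the most abundant gene. Of 7 monocyte genes 3 were higher, among them F13a1 (0.62, not called without propranolol replicate 1). F13a1 was the most abundant of the list in both propranolol libraries and Ccr2 in both control libraries. Their summed level was 962 and 867 against 1111 and 962 CPM. The defining markers Ly6c2 (0.43) and Ccr2 (-0.58) were not called. Ly6c2 had 0.03 without propranolol replicate 1 and was called higher without propranolol replicate 2 (0.76). Ccr2 was called lower without control replicate 2 (-0.66) or propranolol replicate 1 (-0.69), with upper-quartile factors (-0.64) and with the stricter filter (-0.60), and had 0.36 after removal of the GC trend. Of 9 mast cell and basophil genes 3 were tested. Hdc, the enzyme that makes histamine, was higher (2.14) and most abundant, Kit and Gata2 were lower, and the defining markers were absent or nearly so, with 0 counts of Ms4a2 and 0, 0, 1 and 2 counts of Cpa3. Their summed level was 29.6 and 29.9 CPM in control and 76.5 and 101 CPM in propranolol libraries, most of it Hdc. Of 9 endothelial genes 7 were tested, with 1 higher (Cdh5, 0.77, not called by DESeq2 or without control replicate 2 or either propranolol library, or after removal of the GC trend) and 0 lower. Cldn5 had a log2 fold change of 0.00, and Pecam1 was most abundant. The list summed to 53.3 and 49.2 against 64.9 and 64.7 CPM.

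The lists of fibroblasts and mesenchymal tumor cells and of T and NK cells were lower after propranolol. Of 12 mesenchymal genes 10 were lower and 0 higher by edgeR (8 and 0 by DESeq2, 12 and 0 at an unadjusted p under 0.05), including the defining markers Col1a1 (log2 fold change -1.29, and -0.46 and not called without control replicate 1) and Dcn (-2.06, and -1.12 without it). Their summed level was 3787 CPM in control replicate 1, 1448 in control replicate 2, and 822 and 864 in the propranolol libraries, with Col3a1 as the most abundant gene in both control libraries and Col1a1 in both propranolol libraries. After removal of the GC trend Dcn had -0.87 and Ncr1 -1.30, and neither was called (edgeR adjusted p = 0.153 and 0.0601). With the replicate block added, Ncr1 was called (-1.46, edgeR adjusted p = 0.0173) and Dcn was not (-0.79). All 10 T and NK cell genes were lower, including Cd3e (-1.43, and -2.12 without propranolol replicate 1) and Ncr1 (-1.73, and -2.99 without it), and their sum was 355 and 396 against 153 and 74.5 CPM, with Gzmb in first place. The part of these cells in the chemokine levels was not tested.

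**Figure D4:**
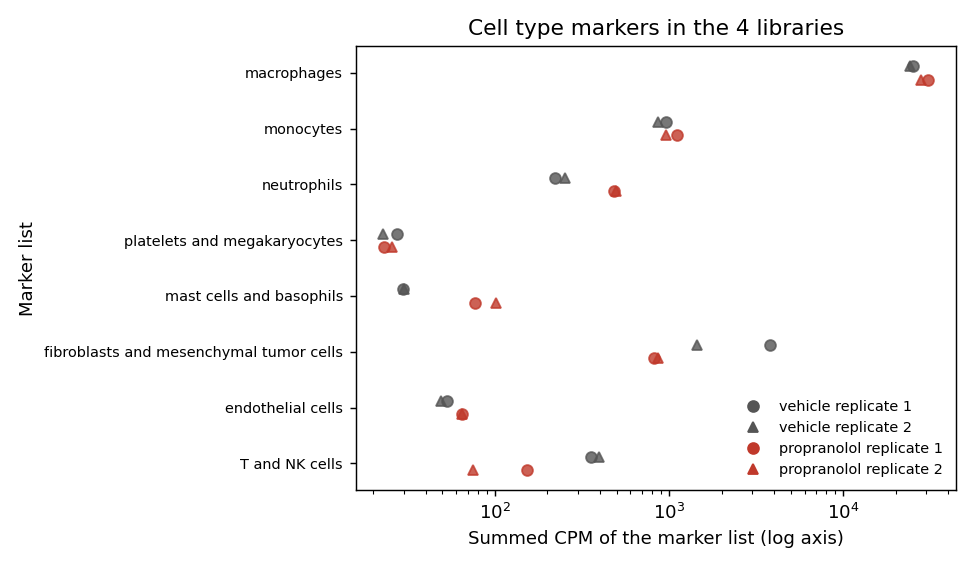
Summed CPM of 8 lists of cell type markers in each library on a log axis, with grey symbols for control and red symbols for propranolol libraries. The neutrophil list lies at 222 and 252 CPM in control and at 482 and 499 CPM in propranolol libraries, and the platelet list lies between 22.8 and 27.4 CPM in all 4.

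Other genes of the CXCR2 pathway were counted from lists of 66 genes, of which 57 were tested. In TAMs from propranolol treated mice 7 of these were higher and 10 lower, and 40 were not called. These are 12.3% and 17.5% of the 57, beside 12.2% and 15.6% of all tested genes, and the median log2 fold change was 0.20 against -0.02 over all tested genes. After removal of the GC trend the counts were 10 higher and 4 lower, or 17.5% and 7.02% of the 57, beside 7.64% and 4.97% of all 14681 genes tested with it, and the median was 0.23 against 0.09. The higher share was thus near that of all genes without the correction and above it with the correction, and this difference was not tested. Of the genes called with it, 7 had also been called without it. The others were Ccr1, Mmp8, Il1a, Il1b, Il1rap and Nfkb1, which were higher, and Cxcl14, which was lower.

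Of 8 tested genes for receptors and binding partners, 2 were higher and 1 lower. Cxcr2, the receptor of the neutrophil-attracting ligands, had 65 and 120 counts in control and 422 and 171 counts in propranolol libraries. These were 4.38 and 4.78 CPM against 11.6 and 11.2 CPM, a log2 fold change of 1.31 (standard error 0.22, edgeR adjusted p = 0.0011). The groups were well apart. Cxcr2 is also one of the neutrophil markers counted above. Cxcr1, the other receptor of this kind, had too few counts for a test (1 and 11 in control, 29 and 5 in propranolol libraries). The heparan sulfate proteoglycans, which hold chemokines at cell surfaces, differed in direction. Sdc1 was higher (0.76) and Sdc2, a gene of mesenchymal cells, was lower (-2.31), while Sdc3, the most abundant, had 0.44 and was under the fold threshold. Without control replicate 1, which had 30.01 CPM of Sdc2 against 10.7 CPM in control replicate 2, the value of Sdc2 was -1.35. After removal of the GC trend Sdc2 had -1.62 and was still called. Sdc1 was not called without control replicate 2 or without propranolol replicate 2, or after removal of the GC trend.

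Among 7 other CXC chemokine genes, 0 were higher and 3 were lower by edgeR and by DESeq2, with 1 and 5 at an unadjusted p under 0.05. These were Cxcl9, a T cell attractant (log2 fold change -1.22), Cxcl12, which binds CXCR4 (-1.01), and Cxcl13, a B cell attractant (-2.51), which had 19 and 35 counts in control and 12 and 1 counts in propranolol libraries and was not called without control replicate 2 or without propranolol replicate 2, or after removal of the GC trend. Without propranolol replicate 1 its value was -4.22. Cxcl16, the most abundant of this list, had 574 and 606 CPM in control and 649 and 631 CPM in propranolol libraries (0.12, not called). Cxcl15, which lies within the cluster between Cxcl3 and Cxcl1 and is known from lung epithelium, had 1 count in all.

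Of 5 tested proteases that trim chemokines, Mmp9 was higher (log2 fold change 1.09, standard error 0.24, edgeR adjusted p = 0.0052) and Dpp4 lower (-1.26). After removal of the GC trend Dpp4 had -0.63 and was not called (edgeR adjusted p = 0.0564). With the replicate block added to the GC correction, Dpp4 was called (-0.64, edgeR adjusted p = 0.0392). Mmp9 had 31.8 and 16.9 CPM in control and 46.2 and 55.9 CPM in propranolol libraries, so that the control replicates differed by more than the propranolol replicates but did not overlap with them. DESeq2 did not call it. Mmp12, the most abundant, had -0.31, and 0.52 after removal of the GC trend, and was not called.

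The inducing cytokines and their receptors had 11 tested genes, of which 1 was higher and 2 were lower, with 5 and 2 at an unadjusted p under 0.05. Il17ra, a subunit of the interleukin-17 receptor, had 111 and 121 CPM in control and 201 and 234 CPM in propranolol libraries (log2 fold change 0.91, standard error 0.11, edgeR adjusted p = 0.00026), whereas its ligand gene Il17a had 0, 0, 4 and 0 counts. Il1r1, the interleukin-1 receptor (-2.06), and Tlr4, the receptor of endotoxin (-0.67), were lower, but neither was called without control replicate 1, where Il1r1 had -1.06, or after removal of the GC trend, where Il1r1 had -1.597 (edgeR adjusted p = 0.0544) and Tlr4 had 0.27. With the replicate block added to the GC correction, Il1r1 was called (-1.56, edgeR adjusted p = 0.0172). Tlr4 was also not called without propranolol replicate 2. The ligand genes Il1b and Tnf were not called. Il1b had 302 and 285 CPM against 385 and 394 CPM (0.41, edgeR adjusted p = 0.0059, under the fold threshold) and was called higher after removal of the GC trend (0.69, edgeR adjusted p = 0.00116), and Tnf had 38.3 and 60.9 against 52.3 and 48.8 CPM with overlapping groups. Tnfrsf1b, a TNF receptor, had the highest mean CPM of the list, with Il1b above it in control replicate 1 and propranolol replicate 2. Its value of 0.40 was under the fold threshold.

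Of 19 genes for NF-kB and other transcription factors, 3 were higher and 3 lower by edgeR and by DESeq2, with 13 and 3 at an unadjusted p under 0.05. Without the share of all tested genes at that unadjusted threshold, nothing is read from the counts of 13 and 3. After removal of the GC trend 2 were higher, Nfkb1 (0.65) and Nfkbia (0.74), and 0 lower. Nfkbia, the inhibitor that NF-kB itself induces, had 150 and 165 CPM in control and 290 and 313 CPM in propranolol libraries (log2 fold change 0.93, standard error 0.10, edgeR adjusted p = 0.00017). Jun (0.61) and Egr1 (0.68), immediate-early genes, were higher and lost the call without propranolol replicate 2, and Jun also without control replicate 1. Rel (-0.64), Hif1a (-0.71) and Creb1 (-0.65), the factor that binds the cyclic AMP response element, were lower. Rel was not called without control replicate 2 or propranolol replicate 1, and Hif1a not without control replicate 1 or propranolol replicate 2. After removal of the GC trend the values of Hif1a and Creb1 were 0.01 and 0.27, and those of Jun, Egr1 and Rel were no longer called. Junb, the most abundant, had 0.33. None of the 7 tested genes for mRNA decay and stability was called by edgeR or DESeq2 (1 higher and 1 lower at an unadjusted p under 0.05). Zfp36, which shortens the life of transcripts with AU-rich elements, had 516 and 581 CPM against 590.5 and 672 CPM (0.20).

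The cluster spans 146.6 kb, and all 6 genes are on the + strand. Within 500 kb on either side and in between, 26 other genes are annotated, of which 12 had no counts and 3 were tested. Of these 3, edgeR and DESeq2 called 1 higher and 0 lower, the same as at an unadjusted p under 0.05. Areg, which encodes the EGFR ligand amphiregulin and starts 248 kb downstream of the start of Cxcl1, had 5 and 0 counts in control and 49 and 24 counts in propranolol libraries (log2 fold change 3.36, standard error 0.97, edgeR adjusted p = 0.0186). Without control replicate 2 its value was 2.10 and the call was lost, and without control replicate 1 no control count was left. The nearest protein-coding gene downstream, Mthfd2l, had 56, 58, 83 and 21 counts (-0.68, edgeR adjusted p = 0.234), and the nearest upstream, Rassf6, had 6, 0, 0 and 0. Ankrd17 was at the edge of the region with a log2 fold change of 0.01. Within the cluster, the fold change did not follow position. Pf4 (0.86) lies between Ppbp (2.25) and Cxcl3 (3.25).

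**Figure D5:**
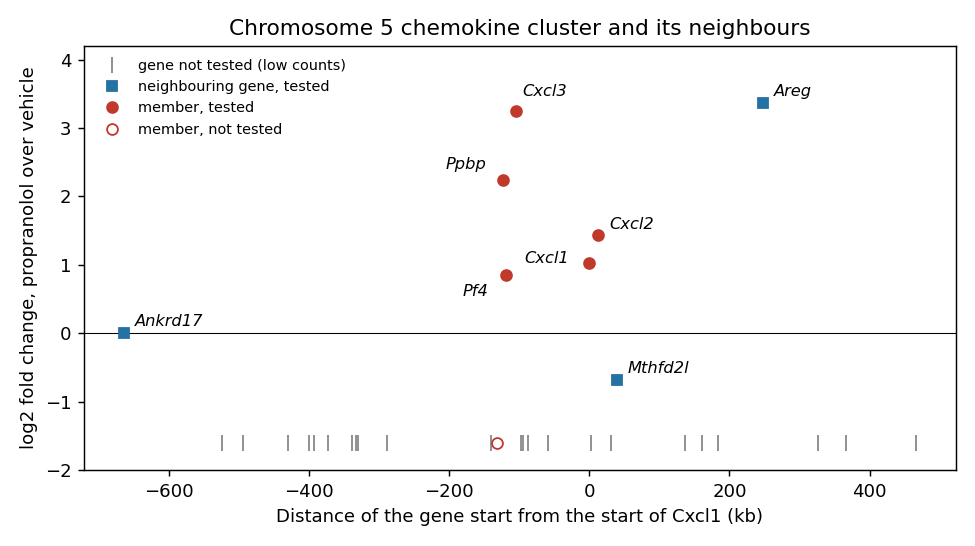
Log2 fold change (propranolol over control) of the tested genes of the region against the distance of their start from that of Cxcl1 in kb, with the 5 fitted cluster genes in red, tested neighbours in blue and genes with too few counts as ticks. Areg, at 3.36, is close to Cxcl3 (3.25) in fold change but not in position, while Ankrd17 and Mthfd2l are at 0.01 and -0.68.

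For each of the 5 fitted genes, the tested genes with the most similar profile were found by the Euclidean distance between log2 CPM values over the 4 libraries, each centred on its own mean. This is a description over 4 libraries only. Ppbp was nearest to Hdc (distance 0.216) and Chil1 (0.228), which encodes a chitinase-like protein of neutrophils and macrophages. Hdc had 18.3 and 19.3 CPM in control and 71.9 and 94.8 CPM in propranolol libraries. Pf4 was nearest to Fn1 (0.0252), which encodes fibronectin, and to Myl6 (0.0560), a myosin light chain. Cxcl2 was nearest to the scavenger receptor gene Stab1 (0.107) and to Csf2ra (0.108), a subunit of the GM-CSF receptor. Stab1 had 2650 and 2889 CPM against 6322 and 7970 CPM. Cxcl1 was nearest to Gm15928 (0.0692), a processed pseudogene, and Gsg1 (0.0883). Cxcl3 had no near match, with Dmkn at 0.625 and the pseudogene B230303A05Rik at 0.788, which had 0.0674 and 0.199 CPM and 0.135 and 0.159 CPM in the control libraries. Among the chemokine genes themselves the closest pair was Cxcl1 and Pf4 (0.376), followed by Cxcl1 and Cxcl2 (0.548), and the most distant was Cxcl3 and Pf4 (2.39).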

How the data were processed

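RNA-seq counts of 4 libraries were used. According to the methods and the processing notes, the authors aligned reads to mm10 with STAR 2.7.1a, filtered by mapping quality (SAMtools 1.9) and summed exon reads per gene (featureCounts 1.6.4), and they deposited raw counts per gene. A strand option is not given in the sources used here. RNA had an integrity number above 7.5. Genes were matched by identifier to GENCODE M21 (54079 matched, 67 unmatched), and 0 columns were left out. Counts were analysed in R 4.3.3 with edgeR 4.0.16 (TMM, filterByExpr with a minimum count of 10, quasi-likelihood test, Benjamini-Hochberg adjustment over 14688 genes, no covariate). The edgeR test was the fixed main test for counts, and DESeq2 1.42.0, the authors' tool, was an alternative. The steps were tested on simulated data. Standard errors were derived from the F statistic. Log2 CPM used a prior count of 2. GC content is that of the longest transcript, and the GC trend was a spline with 5 degrees of freedom.

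The genes and lists were chosen with earlier results of these data known. Named were the 6 genes, the called and the most abundant genes of each pathway list, the called neighbours and the nearest protein-coding genes, the defining and the most abundant markers, and 2 genes nearest to each profile. Cxcr1, Cxcl15, Il17a, Il1b, Tnf, S100a9, Lcn2, Ltf, Camp, Ngp, the genes called only after removal of the GC trend, Csf1r, Ptprc, Kit, Gata2, Gp1bb, Nfe2, Treml1 and Ankrd17 were added after their values were seen. P-values measure the spread between 2 libraries per group. Replicates differed by more than sampling noise (chi-square per degree of freedom 10.6 in control and 13.7 in propranolol libraries). Amino acid sequences were not used here.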

Additional observations from a re-analysis of the deposited data

How the results depend on the processing

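Over the alternatives run, the log2 fold changes of the 5 fitted chemokine genes kept their sign. The ranges with 1 library left out were 3.20 to 3.34 for Cxcl3, 1.90 to 2.57 for Ppbp, 1.29 to 1.603 for Cxcl2, 0.90 to 1.19 for Cxcl1, 0.77 to 0.98 for Pf4, and -1.92 to -0.10 for the log2 ratio of Cxcl5. With the GC correction the values were 3.81 (Cxcl3), 2.87 (Ppbp), 1.82 (Cxcl2) and 1.44 (Cxcl1), and with the replicate block added 3.82, 2.87, 1.82 and 1.43. The GC correction changed the counts of all tested genes from 1798 higher and 2286 lower to 1121 and 730, with 1317 calls in common, and higher genes made up 44.0% of calls without and 60.6% with it. With the replicate block added these were 1180 and 940. Without a filter on low counts 2321 genes were higher and 2145 lower, and with upper-quartile factors 1417 and 2533. A log2 fold change above 1.5, as the methods write the threshold, left 61 higher and 667 lower genes. Pathway genes called lower fell from 10 to 4 with the GC correction and to 6 with the block added, and neighbouring genes called higher ranged from 0 to 1 with 1 library left out. With no filter on low counts 10 pathway genes were higher and 8 lower, and with upper-quartile factors 6 and 11. The causes were not tested.

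The replicate numbers are shared between the groups, but deviations of same-numbered libraries correlated with 0.169 over 2 pairs, and no label says what a number marks, so no pairing was assumed. With the replicate block, 1867 genes were higher and 2495 lower.

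Of the 56 other named genes, 9 reversed sign with the GC correction, and with the block added: Ccr2 (0.36 and 0.36), Cldn5 (-0.32 and -0.38), Creb1 (0.27 and 0.27), Hif1a (0.0094 and 0.0063), Itgam (0.0246 and 0.0194), Mmp12 (0.52 and 0.52), Mthfd2l (0.16 and 0.12), Tlr4 (0.27 and 0.27) and Zfp36 (-0.0537 and -0.0535). Cldn5 was also reversed with upper-quartile factors (-0.0493) and with the block (-0.0615), and Itgam without a filter on low counts (0.0139). With 1 library left out, Cldn5 ranged from -0.85 to 0.67, Itgam from -0.18 to 0.0855, Gp1ba from -0.50 to 0.71 and Stfa2l1 from -0.0197 to 0.98. Calls were also lost by Cdh5, Col1a1 and Mmp9 with DESeq2, by Cdh5, F13a1 and Jun with upper-quartile factors, and by Creb1 and Rel without a filter. Of these 56 genes, Ccr2 gained a call under 4 settings, Csf3r under 3 and Ly6c2 under 1. Il1b, which was not among the 56, gained one with the GC correction. Depth limits Cxcl5, Areg, Ly6g and the platelet markers, which rest on few counts.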
